A study of Danio rerio with 20 samples.

Results

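The proteasome genes of zebrafish (Danio rerio) liver are described here across 2 ages and 2 exercise states, in 20 bulk RNA-seq libraries. Members were taken by name: a gene belonged when its symbol, capitals ignored, began with PSMA to PSMG and a digit, or was POMP. Of 32105 Ensembl genes in the count table, 26269 had a symbol (81.8%), and 59 were members. They comprised 10 genes for the alpha ring, 7 for the beta ring, 6 for inducible beta subunits, 12 for the base, 9 for the lid, 6 for activators and an inhibitor, and 7 for assembly factors. Another 2, PSMC3IP and PSME3IP1, matched by name only, since they are named for binding a subunit. In all, 38 members code for the constitutive rings, base and lid, called the constitutive 26S subunits below. The filter on low counts, which kept 18079 genes, passed 58 members. The thymoproteasome gene psmb11b, grouped by name with the inducible beta subunits, had between 0 and 4 counts in a library and was not tested. That class also holds the fish relatives psmb12 and psmb13a.

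All fish were males of the strain labelled AB JxTu, and the groups were unexercised fish aged 1 year, exercised fish aged 1 year, unexercised fish aged 3 years and exercised fish aged 3 years, with 5 libraries each. Exercise was swimming in a tunnel. The labels do not say whether each library came from a separate fish, so the p-values below describe variation among these libraries alone, and that variation may be technical.

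The 26S proteasome is the main protease of the cytosol and nucleus. Its 20S core is a barrel of stacked alpha and beta rings in which only PSMB5, PSMB6 and PSMB7 cut peptides, and its 19S cap has a base of ATPases that unfold substrates and a lid that takes ubiquitin off them. Interferon-induced cells can build the core with PSMB8, PSMB9 and PSMB10 in place of the 3 constitutive catalytic subunits, giving the immunoproteasome of antigen presentation. In liver the proteasome clears short-lived regulators and misfolded secretory proteins.

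Libraries held between 33046127 and 49579666 counts. All 20 matched hepatocyte marker genes were above 0 in every library, and their sum ranged from 97520 to 252900 CPM of each library's total (CPM scale counts for sequencing depth). A set of 7 libraries stood apart by FABP2, an enterocyte fatty acid binding protein, which exceeded 100 CPM in replicate 5 of the 1-year unexercised group, replicates 3 and 4 of the 1-year exercised group, replicate 3 of the 3-year unexercised group, and replicates 1, 2 and 5 of the 3-year exercised group. Of 15 matched intestinal marker genes, 14 had a higher mean in these 7 libraries, 8 were above 0 in every library and none was at 0 in all. FABP2 itself is 1 of the 14, and its higher mean follows from the way the 7 were picked. Their sum ran from 2109 to 55120 CPM in the 1-year unexercised group, from 3352 to 47360 in the 1-year exercised, from 1747 to 10230 in the 3-year unexercised and from 1094 to 50740 in the 3-year exercised. Exocrine pancreas markers summed to between 11.4 and 116200 CPM. Values without the 7 are given beside the main results they touch. Without them, 4, 3, 4 and 2 libraries remained in the 4 groups in the order above. From here on, CPM are scaled by TMM, which sets most genes level between libraries, unless library totals are named. CPM of FABP2 and of marker genes, alone or summed, are of library totals throughout.

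Levels per transcript length (RPKM, scaled to each library's own total, mean of 20 libraries) were highest for the core. The median was 23.1 RPKM for alpha ring genes and 21.8 for beta ring genes, against 14.7 for the base and 11.3 for the lid. The 6 inducible beta genes, psmb11b at 0.00891 RPKM among them, had a median of 14.9, the assembly factors 6.53 and the activators with the inhibitor 7.62. When copies of the same subunit were added, the 7 alpha subunits lay between 21.2 RPKM (PSMA5) and 52.6 (PSMA2, 2 genes), a 2.48-fold range. The 7 beta subunits ranged 2.61-fold, from 17.1 (PSMB2) to 44.7 (PSMB4). The 9 base subunits ranged only 1.85-fold, from 14.4 (PSMD1, a scaffold of the base) to 26.7 (PSMC2). The 8 lid subunits ranged 5.15-fold, from 5.44 (PSMD7) to 28.0 (PSMD6). The alpha7-type gene in this table carries the symbol PSMA8, at 35.6 RPKM. Levels of subunits with several gene copies (PSMA2, PSMA6, PSMC1, PSMD2, PSMD4, PSMD11) are uncertain gene by gene, because the sources used here do not state how reads shared by near-identical copies were counted. PSMA6, PSMD2, PSMD11 and PSME4 each stand for 2 Ensembl IDs, and whether these are separate genes or parts of 1 gene model was not settled. If they are parts of 1 model, the added RPKM are too high, and calls of both IDs are of 1 gene.

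**Figure D1:**
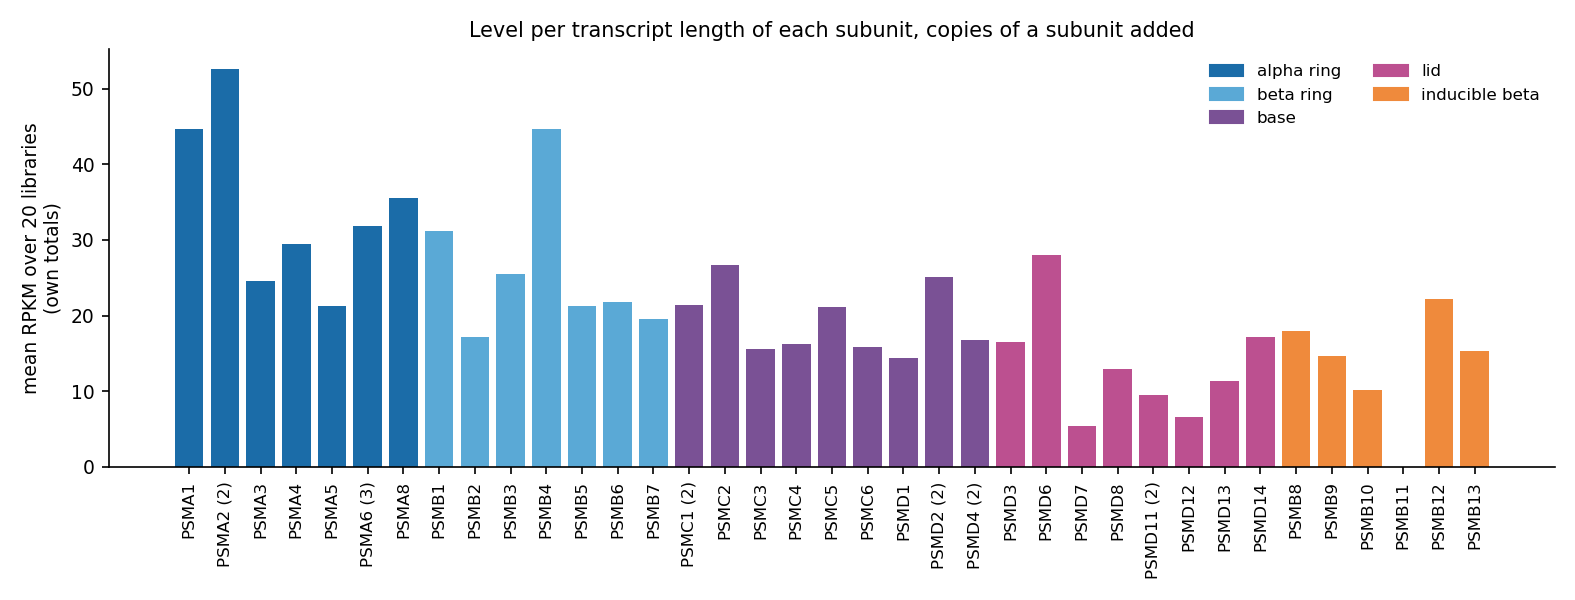
Mean RPKM over 20 libraries for each core, base, lid and inducible subunit; where a subunit has several genes their values were added and the number of genes stands in brackets. Core subunits reached 52.6 RPKM (PSMA2), and PSMD7 of the lid had 5.44.

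Added over the 38 constitutive 26S genes, the level was lowest in exercised fish aged 3 years. The sum was 1164, 986, 925, 1009 and 1165 CPM in the 1-year unexercised libraries, and 1030.0, 1076, 1055, 1052 and 1019 CPM in the 1-year exercised. It was 1035, 885, 861, 1198 and 948 CPM in the 3-year unexercised libraries, and 713, 806, 732.5, 737 and 872 CPM in the 3-year exercised. Of the 3-year exercised libraries, 4 lay below every other library, and replicate 5 overlapped replicate 3 of the 3-year unexercised group. Means were 1050 ± 109, 1046 ± 22.4, 985.6 ± 137 and 772 ± 66.0 CPM (SD, n = 5 each), so that the 3-year exercised mean was 21.7% under that of the 3-year unexercised and 26.2% under that of the 1-year exercised. Of the 38 genes, 36 had their lowest group mean there, including all 12 of the base, all 9 of the lid and all 7 of the beta ring. The share of all genes with their lowest mean in that group was not counted. In bulk tissue, fewer cells of a type and less RNA per cell cannot be told apart. Per library total, hepatocyte markers had a median of 141400 CPM in the 3-year exercised group and 185200 to 226800 CPM in the other groups, and lymphocyte markers, of which 6 of 11 were above 0 in every library, one of 27.1 CPM against 3.75 to 9.06 CPM. Their part in the result was not tested.

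The 2 libraries of this group without intestinal RNA, replicates 3 and 4, had sums of 732.5 and 737 CPM, against 885 to 1198 CPM in the 11 such libraries of the other groups. In these 2 libraries hepatocyte markers summed to 213700 and 233400 CPM, and pancreas markers to 11.4 and 265 CPM, against 154.5 to 116200 CPM in the 15 libraries of the other groups. The sum also depended on the scaling. With CPM scaled to library totals alone it was 913 ± 220 in the 3-year exercised group and 892 ± 109 in the 3-year unexercised (SD, n = 5 each), but 701 and 698 in replicates 3 and 4 of the exercised group against 712 to 1158 in the 11 others without intestinal RNA. The falls below are therefore relative to the other genes of the same libraries.

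**Figure D2:**
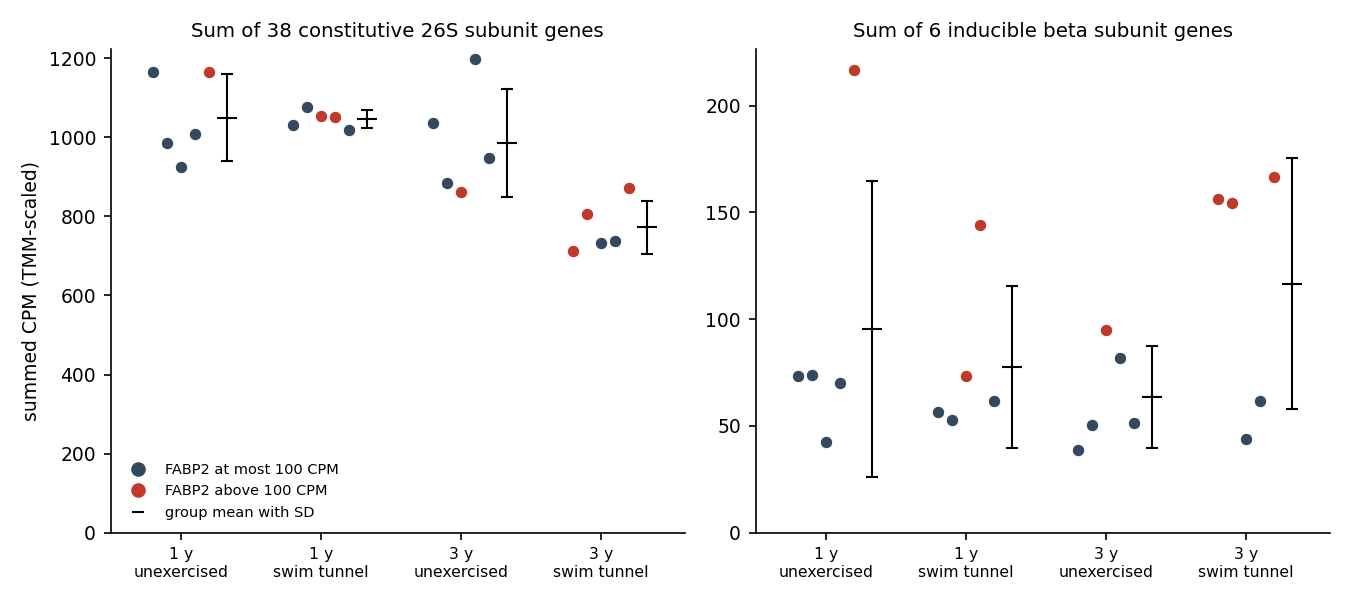
Summed CPM (TMM-scaled) of the 38 constitutive 26S genes and the 6 inducible beta genes in each library, with the group mean and SD (n = 5); red points are the 7 libraries with FABP2 above 100 CPM. The constitutive sum averaged 772 CPM in exercised fish aged 3 years. The inducible sum was 73.2 to 217 CPM in red points and 38.9 to 81.8 CPM in the others.

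The test of each gene was edgeR's quasi-likelihood test over all 18079 genes, and a gene was called at a Benjamini-Hochberg adjusted p under 0.05. Age in exercised fish (3 years against 1 year, swim tunnel only) gave the most calls: 15 members were lower, where 5.25% of all genes were, and 1 was higher, where 3.91% were. At an unadjusted p under 0.05 there were 31 members, against 25.3% of all genes, and DESeq2 called 26 members lower and 1 higher, where it called 16.7% of all genes in either direction. For age averaged over both exercise states, 15 members were lower (6.95% of all genes) and none higher (5.40%). With limma-voom no member was higher in that comparison either, and with DESeq2, which called 24 members lower and 19.2% of all genes, none. At an unadjusted p under 0.05 there were 30 members, against 27.0% of all genes, and only the assembly factor PSMG3 was higher among them (0.34 on the log2 scale). Exercise averaged over both ages lowered 1 member (0.951% of all genes), PSMB5, and raised none (1.00%), and limma-voom and DESeq2 also raised none. At an unadjusted p under 0.05 there were 16 members, against 16.5% of all genes, and DESeq2 called 8 lower, where it called 6.52% of all genes. The interaction, which asks whether exercise acted differently at 3 years than at 1 year, called 2 members, PSMD5 and PSMB5, both lower (0.437% of all genes), and none higher (0.542%), as did limma-voom, while DESeq2 called 5 lower and none higher, where it called 3.80% of all genes. At an unadjusted p under 0.05 the interaction had 15 members, against 14.5% of all genes.

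Exercise at 1 year changed no member by edgeR (1.38% of all genes were higher and 1.47% lower) or limma-voom. At an unadjusted p under 0.05 there were 3 members, against 14.8% of all genes, and DESeq2 called PSMD5 higher, where it called 6.63% of all genes in either direction. Age at rest, 3 years against 1 year without exercise, changed no member by edgeR (1.23% of all genes were higher and 2.26% lower) or limma-voom, with 6 members at an unadjusted p under 0.05, against 17.1% of all genes. DESeq2 called 3 lid genes lower there, PSMD6 and both PSMD11 genes, where it called 8.41% of all genes. Exercise at 3 years changed no gene at all by edgeR (0% higher and 0% lower), the smallest adjusted p being 0.0609. In that comparison 27 members had an unadjusted p under 0.05, against 16.3% of all genes, and DESeq2 called 13 members, all lower, where it called 3.41% of all genes, while limma-voom called none.

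In exercised fish at 3 years, 8 members were lower in every library than in every unexercised library of that age, a pattern held by 1.43% of all genes. They were PSMA6 (ENSDARG00000019398), PSMB5, PSMC4, PSMC6, PSMD3, psmd4b, PSMD5 and PSMD12. Between exercised fish of both ages 20 members were lower without overlap, a pattern held by 6.23% of all genes. All but PSMD5 were constitutive 26S genes. These 2 comparisons share the 3-year exercised libraries and are not independent of each other.

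The median log2 fold change of the 38 constitutive 26S genes was -0.03 for exercise at 1 year and -0.11 for age at rest, with 23 and 26 of 38 below 0 and none called, where the median of all genes was -0.04 and -0.01. For exercise at 3 years it was -0.34, with 37 of 38 below 0 and none called by edgeR, against 0.04 for all genes. For age in exercised fish it was -0.42, with 37 of 38 below 0 and 14 called lower, against 0.08 for all genes. For the interaction it was -0.32, against 0.07. The 1 gene above 0 in both of those comparisons was psma6l, a copy related to PSMA6.

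Scaled to library totals alone, the median of the 38 for exercise at 3 years turned to 0.05, with 13 of 38 below 0, while that of all genes was 0.39. For age in exercised fish the medians were -0.20 and 0.27, with 2 members called, where 891 of 18079 genes were called. Without the 7 libraries with intestinal RNA, the medians of the 38 were -0.50 for exercise at 3 years, with 38 of 38 below 0, and -0.56 for age in exercised fish, with 7 called lower, against -0.05 and -0.06 for all genes. For age in exercised fish that fit called 437 of 18120 genes in either direction. Of the 14 called lower over all 20 libraries, only PSMB4, PSMB5, PSMB7, PSMD6 and PSMD14 were still called, so the 7 include genes not called before. Scaled to library totals and without the 7 libraries, the medians of the 38 in the same 2 comparisons were -0.36 and -0.52. For age in exercised fish 1 member was then called, where 313 of 18120 genes were called.

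**Figure D3:**
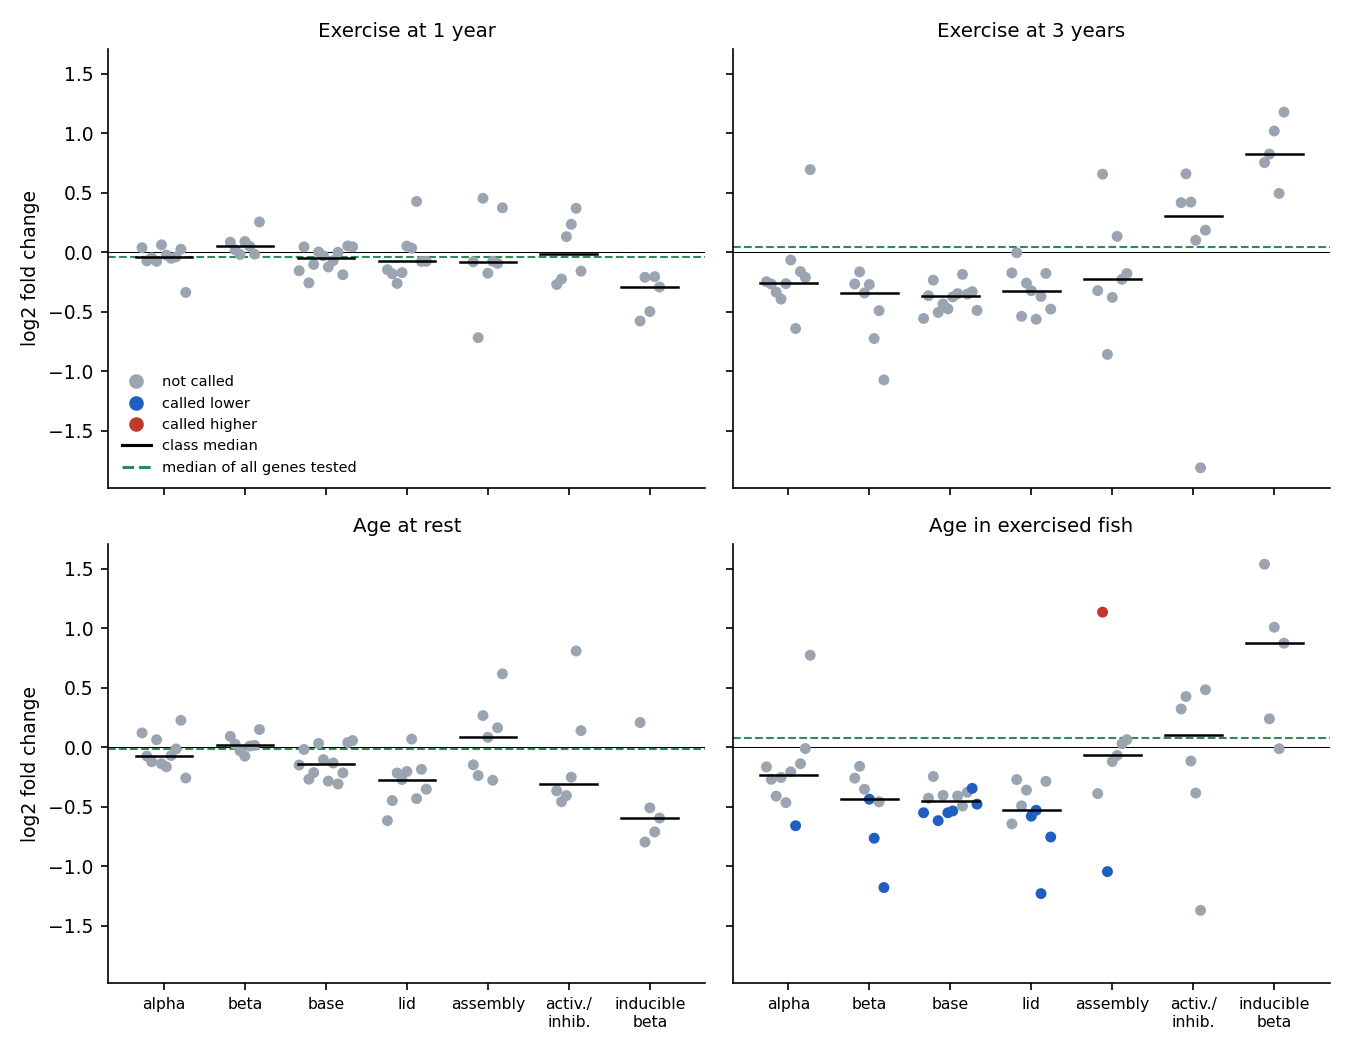
Log2 fold change of each tested member except PSMC3IP and PSME3IP1, by class, in the 4 comparisons of 2 groups; blue and red points passed an adjusted p of 0.05 (edgeR), black bars are class medians and the dashed line is the median of all genes tested. For age in exercised fish 15 members are blue and PSMD10 is red; in the other panels none is coloured.

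In the alpha ring, whose gate controls entry to the core, changes were the smallest of the constitutive classes. The median of its 10 genes was -0.26 for exercise at 3 years and -0.23 for age in exercised fish. Only PSMA6 (ENSDARG00000019398) was called in that class, for age in exercised fish (-0.66 ± 0.16 SE, edgeR adjusted p = 0.0149, and -0.74 and 0.155 without the 7 libraries) and for age averaged over exercise (-0.36 ± 0.11, adjusted p = 0.0378, and -0.40 and 0.159 without the 7). Its group means were 12.2 ± 1.87, 11.8 ± 0.866, 11.6 ± 2.69 and 7.45 ± 1.098 CPM (SD, n = 5 each) for 1-year unexercised, 1-year exercised, 3-year unexercised and 3-year exercised libraries. The other gene with that symbol, ENSDARG00000013966, was at 19.2 ± 1.94, 18.9 ± 0.836, 17.1 ± 6.48 and 16.4 ± 1.55 CPM and was not called. Within the 3-year unexercised group, replicate 4 held the highest level of 9 of the 10 genes, with PSMA1 at 68.5 CPM against 35.04 to 52.9 in the other 4.

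The psma6l gene was at 15.1 CPM in replicate 5 of the 1-year unexercised group against 4.41 to 5.78 in the other 4, and at 12.53, 12.56 and 13.2 CPM in the 3-year exercised libraries with intestinal RNA against 4.14 and 5.55 in those without. In the 1-year exercised group it was at 11.3 CPM in replicate 4 and at 4.86 CPM in replicate 3, both with intestinal RNA, and at 3.6 to 4.16 CPM in the other 3. It was not called in any comparison.

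PSMB5, the chymotrypsin-like catalytic subunit of the beta ring (ENSDARG00000075445), was at 36.9, 28.2, 25.0, 30.6 and 30.9 CPM in the 1-year unexercised libraries and at 33.2, 33.6, 30.5, 28.6 and 30.9 CPM in the 1-year exercised. At 3 years it was at 33.1, 25.6, 27.7, 33.1 and 33.1 CPM without exercise and at 16.02, 18.1, 19.5, 19.5 and 19.3 CPM with exercise. All 5 of these last values lay below the 15 of the other groups, with or without intestinal RNA. Age in exercised fish lowered PSMB5, with a change of -0.77 ± 0.12 on the log2 scale (SE, edgeR adjusted p = 0.00108). The effect of exercise at 3 years was -0.73 ± 0.12 and just missed the threshold (adjusted p = 0.0609). That at 1 year was 0.05 ± 0.12, and the difference between the effects was -0.78 ± 0.16 (adjusted p = 0.0309).

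The interaction call of PSMB5 was lost, with adjusted p between 0.0551 and 0.0796, in 11 of the 20 fits that left out 1 library: replicates 2 or 5 of the 1-year unexercised group, 1, 2, 3 or 5 of the 1-year exercised, 1 or 5 of the 3-year unexercised, and 1, 2 or 5 of the 3-year exercised. Without the 7 intestinal libraries the difference was -0.83 (adjusted p = 0.224), and PSMB5 was still lower with age in exercised fish (-0.81, adjusted p = 0.0484). The averaged effect of exercise on PSMB5 (-0.34 ± 0.08, adjusted p = 0.0398) was lost without the 7 libraries (-0.27, adjusted p = 0.378) and in 15 of 20 such fits, all but those that left out replicates 3 or 5 of the 1-year unexercised, 2 or 3 of the 3-year unexercised or 3 of the 3-year exercised group.

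PSMB6, the caspase-like subunit, had group means of 29.7 ± 3.65, 29.3 ± 2.21, 30.0 ± 7.19 and 21.4 ± 1.13 CPM in the same order of groups (SD, n = 5 each). Its change with age in exercised fish was -0.46 ± 0.14 (SE, edgeR adjusted p = 0.0504), so it was not called, although none of the 3-year exercised libraries, at 20.0 to 22.9 CPM, overlapped the 1-year exercised, at 26.6 to 32.6 CPM.

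PSMB7, the trypsin-like subunit (ENSDARG00000037962), was low wherever intestinal RNA was plentiful. It was at 35.04, 26.5, 27.4, 31.5 and 11.8 CPM in the 1-year unexercised libraries and at 38.6, 33.04, 33.6, 16.8 and 35.7 CPM in the 1-year exercised. The 3-year libraries held 34.6, 24.1, 19.6, 36.4 and 31.9 CPM without exercise and at 8.16, 10.97, 20.6, 20.3 and 9.66 CPM with exercise. In every group the lowest value belonged to one of the 7 libraries, while replicate 3 of the 1-year exercised group, which had the least FABP2 of the 7 at 282.5 CPM, was not low. Age in exercised fish lowered PSMB7, with a log2 change of -1.18 ± 0.32 (SE, edgeR adjusted p = 0.0267), and of -0.88 without the 7 libraries (adjusted p = 0.0465). The call was lost in the 6 fits that left out replicate 1, 3 or 5 of the 1-year exercised group or 1, 2 or 5 of the 3-year exercised, with changes of -1.04 to -1.16 and adjusted p between 0.0597 and 0.0689. Of the other beta ring genes only PSMB4 was called for age in exercised fish (-0.44 ± 0.12, adjusted p = 0.0294, and -0.73 and 0.0462 without the 7).

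The 12 base genes code for the ATPase ring that unfolds substrates and for its scaffold and ubiquitin-receptor subunits. All 12 were below 0 for exercise at 3 years, from -0.56 to -0.19, and for age in exercised fish, from -0.62 to -0.25. For age in exercised fish 6 were called lower: PSMC4, PSMC6, psmd4b, PSMD1, PSMC1 and psmc1b. The ATPase gene PSMC4 was at 46.9, 34.4, 34.5, 34.2 and 38.7 CPM in the 1-year unexercised libraries and at 34.7, 40.4, 31.6, 34.1 and 34.8 CPM in the 1-year exercised. The 3-year libraries held 33.9, 30.6, 29.3, 34.4 and 34.5 CPM without exercise and at 18.3, 23.8, 22.8, 25.4 and 24.2 CPM with exercise. The last group lay below all 15 other libraries. PSMC4 changed by -0.62 ± 0.12 with age in exercised fish (SE, edgeR adjusted p = 0.00497), by -0.51 ± 0.12 with exercise at 3 years (adjusted p = 0.0958), and by -0.68 with age in exercised fish without the 7 libraries (adjusted p = 0.069).

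PSMC6, another of the ATPases, had group means of 27.7 ± 3.66, 27.1 ± 1.67, 25.7 ± 2.59 and 18.5 ± 1.398 CPM (SD, n = 5 each) and changed by -0.55 ± 0.11 with age in exercised fish (SE, edgeR adjusted p = 0.00582; -0.63 and 0.0663 without the 7 libraries). The ubiquitin-receptor gene psmd4b stood between 15.4 and 17.3 CPM in the 3-year exercised libraries and between 18.3 and 26.2 CPM in the 15 others, and changed by -0.48 ± 0.11 with age in exercised fish (SE, edgeR adjusted p = 0.0116; -0.51 and 0.108 without the 7). None of the 6 base calls held without the 7 libraries, with changes of -0.68 to -0.38. For age averaged over exercise the base calls were PSMC4, PSMD1, PSMC6, PSMC1 and PSMD2 (ENSDARG00000103190), from -0.42 to -0.33. The 2 genes named PSMD2 had the same mean over 20 libraries, 15.2 CPM, and 1 of them was called.

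The lid carries the deubiquitinase of the cap. The median log2 fold change of its 9 genes was -0.27 for age at rest, where none was called, and -0.53 for age in exercised fish, where PSMD6, PSMD3, PSMD8 and PSMD14 (the deubiquitinase itself) were called lower. Without the 7 libraries PSMD14 changed by -0.80 with age in exercised fish (edgeR adjusted p = 0.0485). For age averaged over exercise 6 lid genes were called lower, PSMD6, PSMD8, PSMD14, PSMD13 and both PSMD11 genes, more than in any other class. PSMD6 (ENSDARG00000070674), a structural lid subunit, had the lowest adjusted p of the members in both comparisons.

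PSMD6 was at 50.8, 39.4, 35.5, 49.9 and 43.2 CPM in the 1-year unexercised libraries and at 59.12, 70.3, 63.8, 45.8 and 55.2 CPM in the 1-year exercised. Among 3-year libraries it was at 35.5, 32.3, 25.0, 38.3 and 31.1 CPM without exercise and at 21.0, 27.1, 24.0, 26.4 and 26.9 CPM with exercise. The exercised groups of the 2 ages lay far apart, and the unexercised groups overlapped between 35.5 and 38.3 CPM. The change with age was -1.23 ± 0.15 in exercised fish (SE, edgeR adjusted p = 0.000221) and -0.43 ± 0.14 at rest (adjusted p = 0.11). With exercise PSMD6 was 0.43 ± 0.14 higher at 1 year (adjusted p = 0.136). Its age call in exercised fish held in all 20 fits that left out 1 library, with library totals alone (-1.01, adjusted p = 0.009) and without the 7 libraries (-1.36, adjusted p = 0.0112).

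PSMD8, a lid subunit, was at 33.97, 25.9, 23.3, 28.2 and 33.8 CPM and at 28.4, 29.3, 27.1, 24.5 and 28.3 CPM in the 1-year groups without and with exercise. Among 3-year libraries it was at 28.7, 19.6, 18.1, 26.9 and 20.6 CPM and at 12.6, 15.4, 18.4, 14.6 and 20.6 CPM. The 3-year exercised values overlapped the 3-year unexercised ones but none from 1 year. Age in exercised fish lowered it, with a log2 change of -0.75 ± 0.16 (SE, edgeR adjusted p = 0.00844), and of -0.87 without the 7 libraries (adjusted p = 0.0654). PSMD3, another structural lid subunit, was between 21.9 and 24.0 CPM in the 3-year exercised libraries and between 28.9 and 41.0 CPM in the 15 others. It changed by -0.53 ± 0.11 with age in exercised fish (SE, edgeR adjusted p = 0.00725), by -0.57 without the 7 libraries (adjusted p = 0.123), and by -0.56 ± 0.11 with exercise at 3 years (adjusted p = 0.0824).

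**Figure D4:**
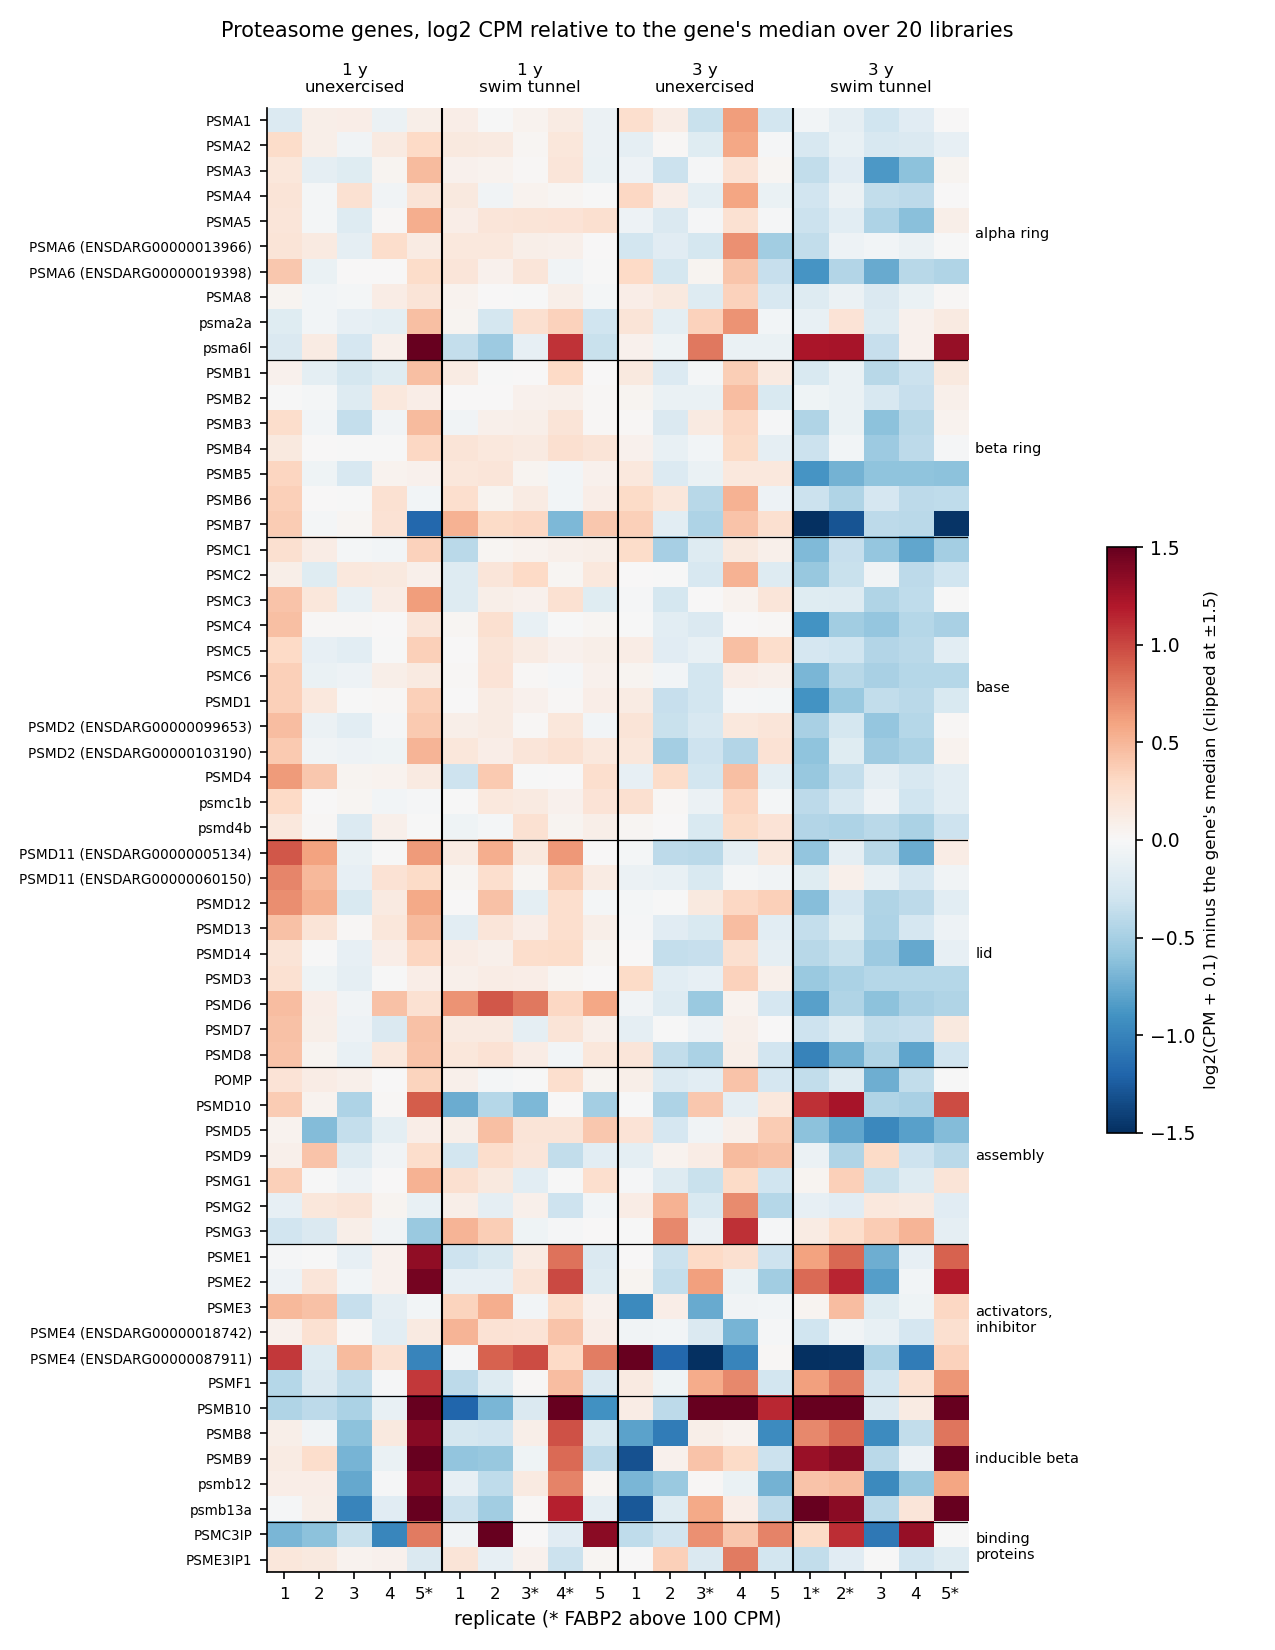
Each of the 58 tested members (rows, by class) in each library (columns, by group; an asterisk marks the 7 libraries with FABP2 above 100 CPM), as log2 CPM relative to the gene's median over 20 libraries, blue lower and red higher. Most ring, base and lid genes are blue in the 5 libraries of exercised fish aged 3 years, while PSME1, PSME2 and most inducible beta genes are red under asterisks. In replicate 3 of the 1-year exercised group, 3 of 5 inducible beta genes lay above their median.

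The assembly factors did not move together. Of 7, only 2 were called, in opposite directions, both for age in exercised fish. PSMD5 (ENSDARG00000059046), a chaperone that holds ATPase subunits during base assembly, was at 7.58, 4.63, 5.68, 6.61 and 7.84 CPM and at 7.77, 10.1, 8.39, 8.36 and 9.72 CPM in the 1-year groups without and with exercise. At 3 years it was at 8.42, 6.12, 7.06, 7.72 and 9.60 CPM without exercise and at 4.75, 4.24, 3.70, 4.12 and 4.63 CPM with exercise. Of the 15 other libraries, only replicate 2 of the 1-year unexercised group reached as low as these last 5.

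PSMD5 was the member with the lowest p for the interaction. The effect of exercise was 0.45 ± 0.15 at 1 year (SE, edgeR adjusted p = 0.137) and -0.86 ± 0.15 at 3 years (adjusted p = 0.0721), and their difference was -1.31 ± 0.22 (adjusted p = 0.00864). The difference stayed called in all 20 fits that left out 1 library (adjusted p up to 0.0229). It was -1.65 without the 7 libraries (adjusted p = 0.093) and -1.0 with library totals alone (adjusted p = 0.296). Age in exercised fish lowered PSMD5, with a log2 change of -1.05 ± 0.16 (adjusted p = 0.000817), and of -1.30 without the 7 libraries (adjusted p = 0.0293).

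PSMD10, known as gankyrin, which binds the ATPase PSMC4, was the only member called higher by edgeR over all 20 libraries with TMM scaling and no term for intestinal RNA. It rose by 1.14 ± 0.34 with age in exercised fish (SE, edgeR adjusted p = 0.0421), a call that limma-voom did not make. It was at 7.10, 7.88 and 6.54 CPM in the 3-year exercised libraries with intestinal RNA and at 2.37 and 2.30 CPM in those without, and between 1.92 and 3.28 CPM in the 1-year exercised. Without the 7 libraries its change was 0.02 (adjusted p = 0.984), and with intestinal RNA as a term of the model it was 0.81 (adjusted p = 0.0427).

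POMP, which escorts beta subunits onto the alpha ring, had group means of 24.1 ± 2.11, 22.7 ± 1.801, 21.7 ± 4.57 and 17.4 ± 3.14 CPM (SD, n = 5 each), and its change with age in exercised fish was -0.39 ± 0.15 (SE, edgeR adjusted p = 0.0996). Alpha-ring assembly depends on the PSMG chaperones. PSMG1 was at 9.18, 8.71, 7.57 and 8.30 CPM on average, PSMG2 at 15.3, 14.3, 17.1 and 14.6 CPM, and PSMG3 at 8.52, 11.04, 13.1 and 11.5 CPM, and none was called in any comparison. PSMG3 was 0.62 ± 0.22 higher at 3 years at rest (edgeR adjusted p = 0.142), with 20.8 CPM in replicate 4 of that group and between 9.15 and 16.1 CPM in the other 4.

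Activators open the core from its ends, and PSMF1 (PI31) can inhibit it. PSME1 and PSME2, which form the interferon-induced PA28 cap, followed the intestinal libraries. PSME1 was at 30.0, 30.1, 27.8, 31.8 and 76.5 CPM and at 24.4, 25.8, 32.9, 53.4 and 26.1 CPM in the 1-year groups without and with exercise, and at 30.4, 24.1, 37.4, 35.9 and 24.4 CPM and at 45.9, 55.1, 18.2, 27.7 and 56.1 CPM in the 3-year groups. In every group the highest value came from a library of the 7. PSME2 went from 13.9 to 67.0 CPM in the same way, and neither gene was called in any comparison.

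PSMF1 was likewise not called, at 24.1 CPM in replicate 5 of the 1-year unexercised group and 8.53 to 11.3 CPM in the other 4. PSME3, a nuclear activator, had means of 9.40 ± 2.42, 10.3 ± 1.68, 7.08 ± 2.19 and 9.49 ± 1.79 CPM (SD, n = 5 each) and was not called. Of the 2 genes named PSME4, for the activator PA200, ENSDARG00000018742 fell with age averaged over exercise (-0.32 ± 0.10 SE, edgeR adjusted p = 0.0455), a call lost in 12 of 20 fits that left out 1 library, with adjusted p between 0.0547 and 0.087 in those fits, and without the 7 libraries (-0.40, adjusted p = 0.117). The fits that kept it left out replicates 4 or 5 of the 1-year unexercised, 2 or 5 of the 1-year exercised, 1, 2 or 5 of the 3-year unexercised or 5 of the 3-year exercised group. The other, ENSDARG00000087911, was at 26.6 CPM in replicate 1 of the 3-year unexercised group and between 0.682 and 6.74 CPM in the 19 other libraries, and was not called.

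None of the inducible beta genes was called. Their median log2 fold change over 5 tested genes was 0.82 for exercise at 3 years, 0.87 for age in exercised fish and 1.33 for the interaction, and -0.29 and -0.60 for exercise at 1 year and age at rest. At an unadjusted p under 0.05, psmb13a and PSMB9 were higher with exercise at 3 years and PSMB9 with age in exercised fish, and edgeR, limma-voom and DESeq2 called none of the 5. Their sum was between 73.2 and 217 CPM in the 7 libraries with intestinal RNA and between 38.9 and 81.8 CPM in the 13 others. Without the 7 libraries the medians were -0.03 for exercise at 3 years, 0.17 for age in exercised fish and 0.13 for the interaction. Myeloid markers, all 11 of which were above 0 in every library, summed to 366 to 2073 CPM of library totals in exercised fish aged 3 years and to 76.9 to 801 CPM in the 15 other libraries. This sum was mostly that of cd74a and cd74b, with means over 20 libraries of 301 and 150 CPM. No other gene of the list had a mean above 18 CPM. Of the 11, 10 had a higher mean in the 7 libraries, while lyz had a lower one. The part of intestinal or myeloid RNA in these values was not tested.

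PSMB10, which replaces PSMB7, was at 2.72, 2.85, 2.69, 3.49 and 24.4 CPM and at 1.59, 2.30, 3.24, 15.2 and 1.95 CPM in the 1-year groups without and with exercise. At 3 years it was at 4.06, 2.85, 15.1, 11.6 and 8.34 CPM without exercise and at 22.0, 19.9, 3.22, 4.09 and 21.5 CPM with exercise. The 6 libraries with the highest PSMB10 were the 6 with the lowest PSMB7, and all belonged to the 7 with intestinal RNA. Replicates 4 and 5 of the 3-year unexercised group came next for PSMB10, with FABP2 at only 0.415 and 3.06 CPM. With intestinal RNA as a term of the model, PSMB10 rose by 0.95 with age averaged over exercise (edgeR adjusted p = 0.0273), and without the 7 libraries its change with age was 1.15 at rest (adjusted p = 0.12) and 0.84 in exercised fish (adjusted p = 0.353).

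PSMB8, which replaces PSMB5, was at 25.5, 23.3, 15.7, 26.6 and 62.4 CPM and at 19.95, 19.75, 25.6, 46.7 and 20.6 CPM in the 1-year groups. At 3 years it was at 13.7, 11.5, 25.6, 24.9 and 12.5 CPM without exercise and at 39.7, 43.6, 12.4, 18.7 and 41.9 CPM with exercise. The groups overlapped in all comparisons. PSMB9, which replaces PSMB6, ranged from 4.59 to 34.6 CPM, psmb12 from 8.75 to 44.3 CPM and psmb13a, one of the fish relatives of these subunits, from 5.98 to 51.1 CPM, each with its highest value in replicate 5 of the 1-year unexercised group.

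The ratio of an inducible gene to its constitutive partner, taken per length, does not depend on library scaling. PSMB10 to PSMB7 had group medians of 0.134, 0.0868, 0.326 and 2.26 in the order of groups used above. It was 3.36, 2.26 and 2.78 in the 3-year exercised libraries with intestinal RNA and 0.195 and 0.252 in those without. PSMB8 to PSMB5 had medians of 0.666, 0.538, 0.363 and 1.76, and PSMB9 to PSMB6 of 0.390, 0.323, 0.389 and 1.4. In the 3-year exercised libraries without intestinal RNA, PSMB8 to PSMB5 was 0.515 and 0.774 and PSMB9 to PSMB6 was 0.411 and 0.570. The 7 1-year libraries without it spanned 0.474 to 0.700 for the first ratio and 0.253 to 0.548 for the second, so replicate 3 lay within both ranges and replicate 4 above both. For PSMB10 to PSMB7 these 7 libraries spanned 0.0514 to 0.138, and both replicates lay above them. The 3-year unexercised libraries without intestinal RNA spanned 0.146 to 0.396 for PSMB10 to PSMB7, and both replicates lay within that range. Those unexercised libraries spanned 0.305 to 0.606 for PSMB8 to PSMB5 and 0.150 to 0.426 for PSMB9 to PSMB6. Replicate 3 lay within both of these ranges and replicate 4 above both.

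**Figure D5:**
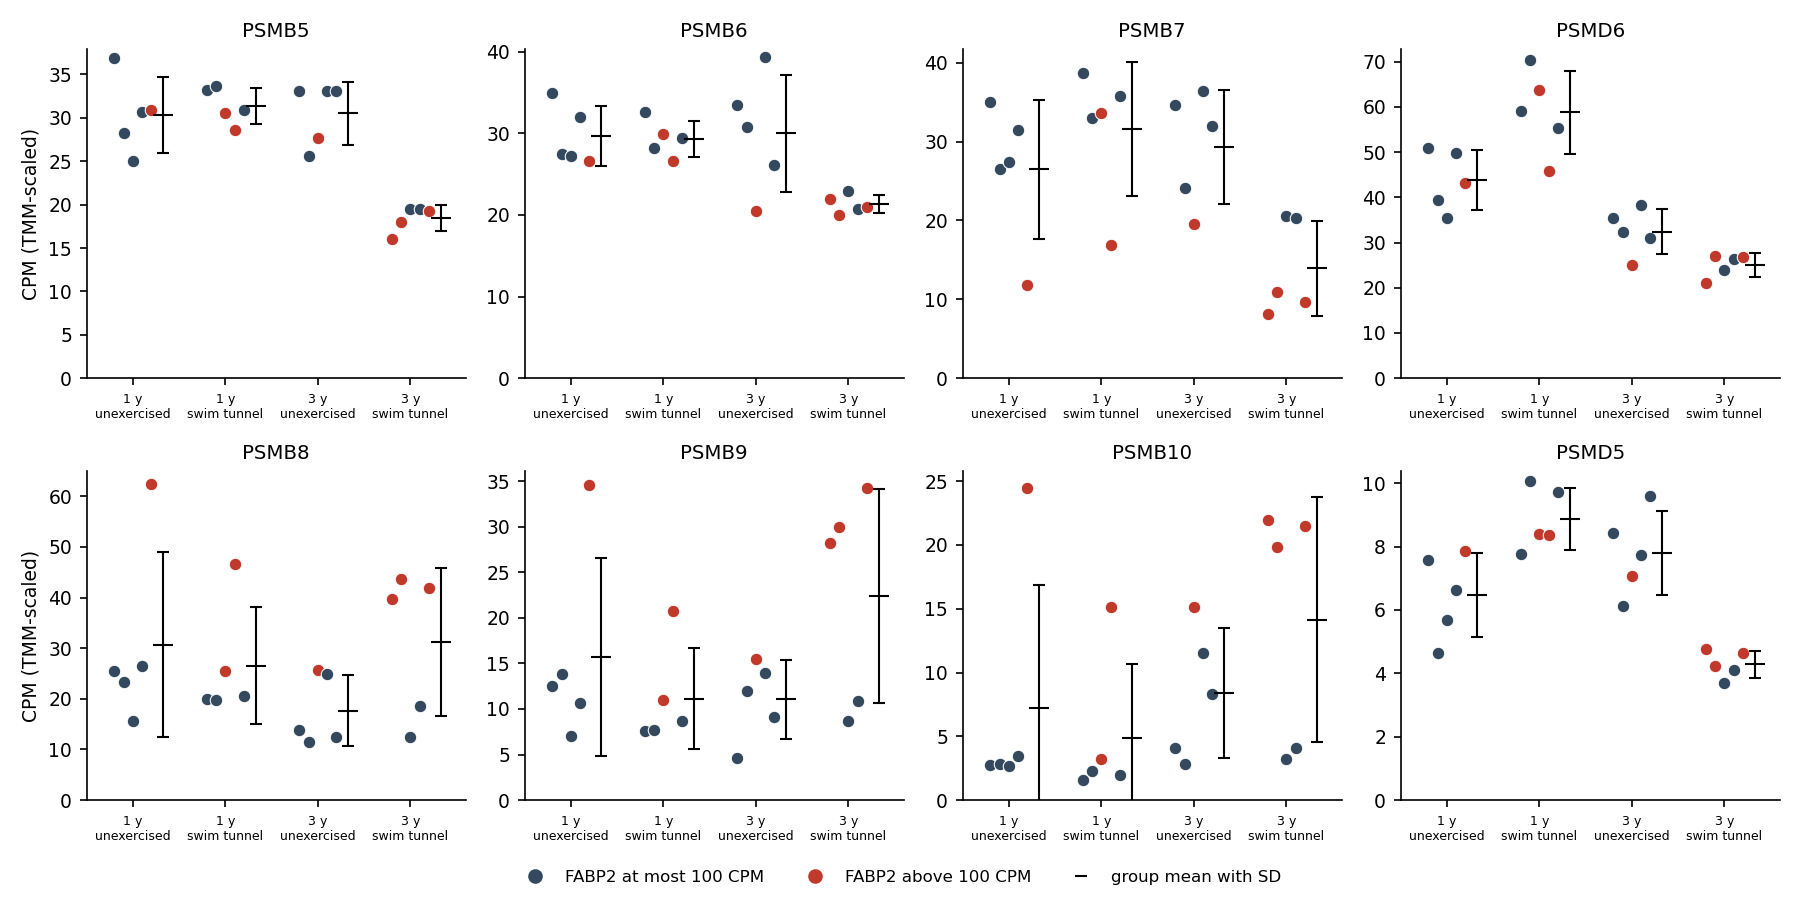
CPM (TMM-scaled) of 8 members in each library, with the group mean and SD (n = 5; bars that would pass below 0 end at the axis); red points are the 7 libraries with FABP2 above 100 CPM. PSMB5 and PSMD5 are low in all 5 libraries of exercised fish aged 3 years, while PSMB8, PSMB9 and PSMB10 are high, and PSMB7 low, in the 3 red points of that group.

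The 2 genes that match by name only were not called. PSME3IP1, which binds PSME3, was between 9.34 and 20.8 CPM, and PSMC3IP, a meiotic recombination factor, between 0.126 and 1.35 CPM.

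Genes that act with the proteasome were counted in lists outside the name rule. Of 10 proteins bound to the proteasome, 4 were lower with age in exercised fish, where 5.25% of all genes were, with a list median of -0.62. Without the 7 libraries 2 were, USP14 (-1.22, edgeR adjusted p = 0.013) and UCHL5 (-1.03, adjusted p = 0.0466), with a list median of -0.51. That fit called 437 of 18120 genes in either direction. USP14, a deubiquitinase on the base, was at 21.5 ± 2.65, 19.4 ± 1.84, 14.4 ± 1.85 and 10.4 ± 2.22 CPM (SD, n = 5 each), and fell with age both at rest (-0.58 ± 0.14 SE, edgeR adjusted p = 0.031, and -0.57 and 0.0619 without the 7) and in exercised fish (-0.90 ± 0.14, adjusted p = 0.00137). It was the only gene of the list called for age at rest, where 2.26% of all genes were lower. UCHL5, another deubiquitinase of the cap, fell by 0.78 on the log2 scale in exercised fish (edgeR adjusted p = 0.0134), and zfand5b, a zinc-finger protein that stimulates the proteasome in mammals, by 0.84 (adjusted p = 0.0136). The fourth was TXNL1, a thioredoxin-like protein of the cap.

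Among 12 transcription regulators of proteasome genes, 2 were higher with age in exercised fish, where 3.91% of all genes were, and the list median was 0.48, or 0.11 without the 7 libraries. NFE2L2, the oxidative-stress factor NRF2, was at 75.3 ± 12.9, 57.8 ± 11.4, 104 ± 19.5 and 114 ± 27.5 CPM (SD, n = 5 each) and rose by 0.98 ± 0.19 (SE, edgeR adjusted p = 0.00517), and by 1.21 without the 7 (adjusted p = 0.0396). The interferon regulatory factor gene irf1b rose by 1.38 ± 0.40 (edgeR adjusted p = 0.039), and its change was 0.33 without the 7 (adjusted p = 0.46). Its mean of 93.5 CPM in the 3-year exercised group had an SD of 71.3.

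Of 10 ubiquitin shuttles and p97 cofactors, FAF2 was lower with age in exercised fish, where 5.25% of all genes were. UBQLN4 was lower with age averaged over exercise, where 6.95% of all genes were. Neither was called without the 7 libraries (edgeR adjusted p = 0.162 and 0.0824). None of 11 class I antigen processing genes was called by edgeR, the one tool run on these lists. For exercise at 3 years their median was 0.74, and 6 were higher at an unadjusted p under 0.05, where 16.3% of all genes passed in either direction. The median was 0.15 without the 7 libraries, where 1 gene of the list, erap2, was called for age in exercised fish (2.01, edgeR adjusted p = 0.04). In that comparison 437 of 18120 genes were called without the 7. Of 9 peptidases that trim proteasome products, 2 were lower with age in exercised fish, where 5.25% of all genes were. They were LAP3 (-1.17 ± 0.23 SE, edgeR adjusted p = 0.00524) and PREP (-1.15 ± 0.29, adjusted p = 0.0198). Without the 7 libraries their changes were -1.28 (edgeR adjusted p = 0.0344) and -1.41 (adjusted p = 0.0895). TPP2 was higher with exercise at 1 year (0.58 ± 0.13, edgeR adjusted p = 0.0198, and 0.67 and 0.0843 without the 7), where 1.38% of all genes were.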

How the data were processed

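RNA of 20 liver libraries was measured. Per the submitters' processing notes, bcl2fastq 1.8.4, STAR 2.4.1d and featureCounts 1.4.6-p4 were used with build GRCz10. The deposited counts are whole reads per Ensembl gene, 33046127 to 49579666 per library, and per the labels the library kit was one that does not mark strand. The RPKM values, as deposited, did not follow each library's own total: for 1399 well-covered genes (no library under 1000 counts), the implied gene length had a median CV of 0.14 across libraries with own totals, and a CV of at most 0.00013 when the list of totals was repeated down the rows of the table. Gene lengths recovered from them were therefore used to recompute RPKM from the counts.

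Symbols were matched by Ensembl ID. The members and gene lists were chosen with earlier results of these data known. Genes were filtered with filterByExpr, scaled by TMM and tested with edgeR 4.0.16 (R 4.3.3), as 4 group means over 20 libraries with 7 contrasts, with Benjamini-Hochberg adjustment and a threshold of 0.05. The fit was tested on simulated data. The text names the catalytic and inducible subunits, activators, the inhibitor, POMP and PSMG genes in every case, and otherwise the 6 called members of lowest p per contrast, or the 3 lowest where none was called, and at most 3 called genes per related list and contrast. Other genes named were chosen after their values were seen. Alternatives were RLE and upper-quartile scaling, no filter or at least 10 counts in every library, limma-voom (limma 3.58.1), DESeq2 1.42.0, fits of only the groups compared, leaving out each library, and leaving out the 7 libraries with intestinal RNA. Added after seeing the data were intestinal RNA as a term, library totals alone, and these totals without the 7 libraries. Some results on the related lists are not reported here.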

Additional observations from a re-analysis of the deposited data

Results flagged for a closer look

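Dixon's test was run on 120 sets of 5 libraries, each a named gene or a sum of constitutive or inducible genes in a group. The values tested were log2 CPM, while the CPM printed below are not logged. In 8 sets the gap of 1 library to the next, over the range of the group on the log2 scale, passed the critical value of 0.71. Chance gives about 1 such set in 20 among independent sets, and 8 of 120 is near that share. The sets share libraries and are not independent, so their number cannot be judged against chance. Of the 8, 5 came from replicate 5 of the 1-year unexercised group, which had FABP2 at 3480 CPM. There PSMB7 was low at 11.83 CPM (26.53 to 35.04 in the other 4 libraries), while PSMB10 was high at 24.45 CPM (2.69 to 3.489), PSME1 at 76.51 CPM (27.75 to 31.77), PSME2 at 67.02 CPM (23.31 to 28.1) and PSMF1 at 24.11 CPM (8.526 to 11.31). PSMB7 was also low, at 16.84 CPM, in replicate 4 of the 1-year exercised group (33.04 to 38.63), with FABP2 at 3306 CPM. PSMC6 was at 16.06 CPM in replicate 1 of the 3-year exercised group (18.55 to 19.37). PSME4 (ENSDARG00000018742) was at 13.19 CPM in replicate 4 of the 3-year unexercised group (18.44 to 21.13). The part of intestinal RNA in these values was not tested.

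The effect of exercise differed between ages, by edgeR's interaction term, for PSMD5 by -1.313 (adjusted p = 0.00864) and for PSMB5 by -0.775 (adjusted p = 0.0309), both on the log2 scale. The PSMB5 call was lost in 11 of the 20 fits that left out 1 library, and the PSMD5 call in none. Neither gene was called without the 7 libraries with intestinal RNA or with library totals alone.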

How the results depend on the processing

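The number of members called was 0 for exercise at 1 year, 0 for exercise at 3 years, 0 for age at rest, 16 for age in exercised fish, 2 for the interaction, 1 for exercise averaged over ages and 15 for age averaged over exercise. With DESeq2 these numbers were 1, 13, 3, 27, 5, 8 and 24, while its calls over all genes rose as well, from 515, 0, 632, 1657, 177, 353 and 2233 to 1198, 617, 1521, 3011, 687, 1179 and 3476. Without the 7 libraries with intestinal RNA they were 8 for age in exercised fish, 8 for age averaged over exercise, and 0 for the interaction and for averaged exercise. Over all 18120 genes of that fit the calls were 437, 1450, 20 and 6 in the same order. With library totals alone the members called were 2 for age in exercised fish, 1 for averaged age, and 0 for the interaction and averaged exercise. Over all 18079 genes the calls were then 891, 1398, 69 and 244. Leaving out the 7 libraries as well gave 1, 1, 0 and 0 members, where 313, 1094, 10 and 21 of 18120 genes were called. The call of averaged exercise fell to 0 also with intestinal RNA as a term, with upper-quartile scaling and with no filter on low counts. In the same order 236 of 18079, 245 of 18079 and 199 of 26860 genes were then called. The fit with no filter left 1 interaction call, where 100 of 26860 genes were called. At least 10 counts in every library gave 1 call for exercise at 3 years, where 6 of 12703 genes were called. RLE scaling and limma-voom moved none of the 7 numbers by more than 1.5 times, nor did fits of only the groups compared for the 4 comparisons of 2 groups.

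Leaving out 1 library gave 0 to 2 calls for exercise at 3 years (1 without replicate 3 and 2 without replicate 5 of the 1-year unexercised group, 1 without replicate 3 of the 3-year exercised). In these 3 fits 3 of 18434, 22 of 18291 and 11 of 18404 genes were called. Age at rest had 0 to 1 calls (1 without replicate 3 or 5 of the 1-year unexercised or 4 of the 3-year unexercised group). There 760 of 18434, 825 of 18291 and 494 of 18423 genes were called. Age in exercised fish had 11 to 21 calls, the interaction 1 to 3 and averaged exercise 0 to 2. Over all genes the calls ran from 866 to 2515, from 58 to 216 and from 140 to 657 in the same order. Averaged age had 9 (without replicate 1 of the 1-year unexercised group) to 24 (without replicate 5 of the 3-year exercised). In these 2 fits 1684 of 18435 and 2228 of 18286 genes were called. No change listed for a named gene reversed its sign in any of these fits, and other members and class medians were not checked for sign in them. With library totals alone, the median of the 38 constitutive 26S genes for exercise at 3 years did change sign, from -0.34 to 0.05. Class medians also changed sign without the 7 libraries. For exercise at 3 years that of the inducible beta genes went from 0.82 to -0.03, with 4 of 5 genes then below 0 against 0 of 5 before. That of the activators and inhibitor went from 0.30 to -0.18. The cause of the changes was not tested, except that leaving out libraries leaves fewer samples. No paired analysis was possible because the labels give the groups no shared replicate numbers.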
